A study of Mus musculus with 20 samples.

Results

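RNA of mouse embryos that lack Ptdsr was compared with that of wild-type embryos at embryonic day 11.5 (E11.5) on 4 arrays read in 2 colours, out of 20 arrays in the series. These were all the arrays whose titles and source names gave this age. Each array carried Ptdsr-/- RNA in one channel and, in the other, a pool of RNA from Ptdsr+/+ embryos of the same age, made from 6 control animals per the labelling protocol. The mutant carried Cy5 on arrays 1 and 2 and Cy3 on arrays 3 and 4, a dye swap in which each orientation was run on 2 arrays. The other arrays of the series, 12 at E12.5 and 4 at E13.5, were used here only for the difference between ages.

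The design text gives technical repeats alone at E11.5, so the 4 arrays describe how well this comparison could be measured again, and not how embryos vary. The sources used here do not give the number of mutant embryos, their strain and sex, or how the mutant allele was built. The labels name the source as embryo, while the extraction protocol speaks of organs, so whether whole embryos or parts of them were used is not settled. The values are ratios, so no absolute level of any tissue marker could be checked.

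Ptdsr is now named Jmjd6. The protein was first taken for the receptor that lets phagocytes recognise phosphatidylserine exposed by dying cells. Later work placed it in the nucleus, as an iron-dependent oxygenase of the JmjC family that hydroxylates lysines in splicing factors of the SR type. Mice without it are known to die around birth with malformed heart, eyes, lungs and other organs and with poorly matured red blood cells. The genes described below therefore cover the JmjC family, splicing, engulfment and cell death, and markers of the affected organs.

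The arrays gave 16590 to 19104 values for 20355 probes. Between 7.97% and 18.0% of the values of an array were ratios of whole numbers up to 10 (here called low-number ratios) against 2.48% to 3.09% for the same ratios shifted. The spread was wider with the mutant in Cy3. The SD over probes was 1.23 and 1.07 on arrays 3 and 4, against 0.91 and 0.89 on arrays 1 and 2. Values of 1 or more from 0 (2-fold) made up 26.8% and 21.0% of arrays 3 and 4, and 15.7% and 15.4% of arrays 1 and 2. The sign of the deposited log2 ratio is likely mutant over wild type, but this is not settled. Values over 12 from 0, which a channel floored at a ratio of 1e+05 would give, were positive where Cy5 carried the mutant (arrays 1 and 2) and negative where Cy3 did. Genes are therefore placed by the deposited sign, and values with the sign turned on arrays 3 and 4 are given where a statement rests on direction.

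Jmjd6 itself, the targeted gene, lay below 0 on all 4 arrays. Its log2 ratios were -0.71 and -0.28 on arrays 1 and 2, with the mutant in Cy5. On arrays 3 and 4, with the mutant in Cy3, they were -0.68 and -0.90. The arrays of both orientations overlapped, and the mean was -0.65 ± 0.26 (SD, n = 4 arrays). The fitted mean had a standard error (SE) of 0.20 and a 95% interval of -1.17 to -0.12, and by limma, with Benjamini-Hochberg adjustment over 9052 genes, its adjusted p was 0.914. An exact sign-flip permutation test over the 4 arrays, two-sided, gave p = 0.125, the smallest that 4 arrays allow. Leaving out each array in turn kept the value between -0.75 and -0.54, and removing low-number ratios moved it to -1.05. With the sign turned on the swapped arrays the value was 0.15.

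Behind these averages stood a pair of probes that differed widely. The first probe lay at -3.69 on array 1 and at -0.28, 0.18 and -0.37 on arrays 2, 3 and 4. The other probe lay at 2.27 on array 1, had no value on array 2, and lay at -1.55 and -1.44 on arrays 3 and 4. On array 1 they stood on opposite sides of 0. Of their 7 values, 3 were low-number ratios. At the later ages Jmjd6 lay at -0.91 ± 1.46 (SD, n = 12 arrays) in the E12.5 arrays and at 0.23 ± 0.73 (n = 4) in those of E13.5. Since the sources used here place neither the probes nor the deletion on the transcript, the value does not check the labels.

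**Figure D1:**
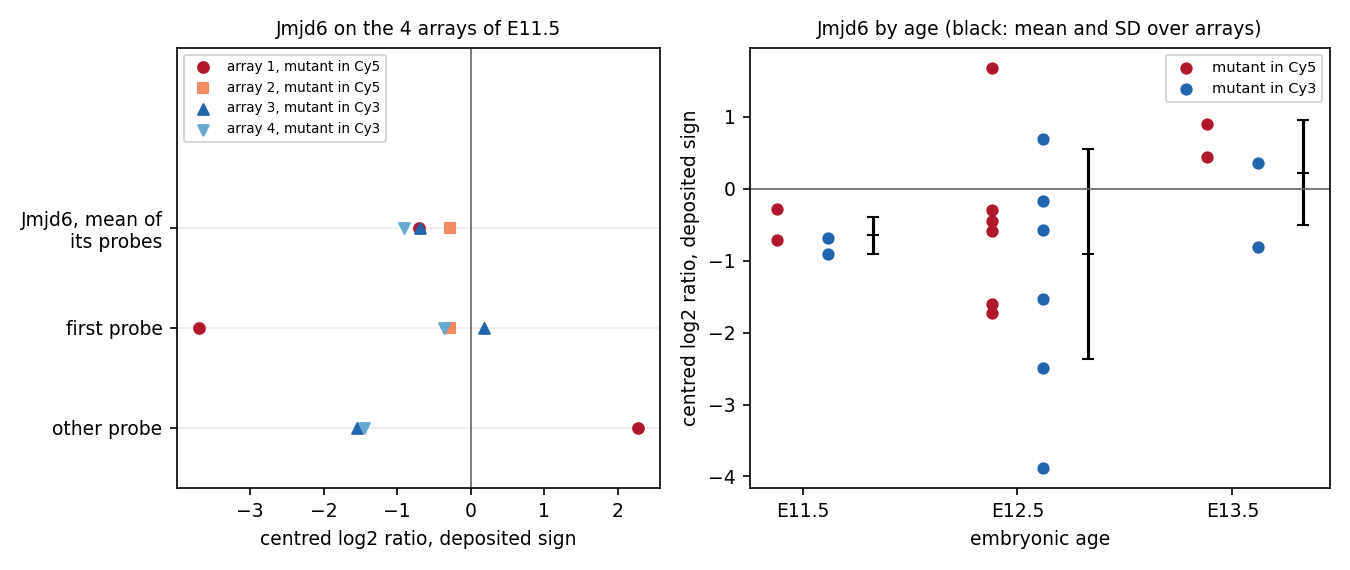
Left, the centred log2 ratio of Jmjd6 and of each of its probes on the 4 arrays of E11.5; right, Jmjd6 on every array of the 3 ages, coloured by the dye of the mutant, with the mean and SD over arrays in black. The gene lies between -0.90 and -0.28 on the arrays of E11.5, while its first probe spans -3.69 to 0.18.

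The comparison of mutant with wild type at E11.5 asks which genes differed at the earliest age collected. None of the genes passed. By limma with adjusted p under 0.05, 0 of 9052 genes (0%) lay above 0 and 0 of 9052 (0%) below it, with a smallest adjusted p of 0.914. At an unadjusted p under 0.05 there were 252 genes above 0 and 196 below, together 4.95% of those tested. The median SE of a gene was 0.26. For 4686 genes (51.8%) the 95% interval of the mean lay wholly within 1 of 0. In the deposited sign, a difference of 2-fold or more between the preparations lay outside the interval of these genes. Such interval counts, here and for the gene groups below, were not made with the sign turned. For the other genes the interval reached a 2-fold difference in at least one direction. Genes with a value on 3 arrays only, 2142 in number, reached an unadjusted p under 0.05 in 11.1% of cases, against 3.05% of the 6910 genes with 4 values, and the genes with the smallest p, given next, were taken from the latter.

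Among the 6910 genes with 4 values, 362 (5.24%) lay above 0 on every array and 336 (4.86%) below it on every array. The 10 of each kind with the smallest p had means between 0.82 and 1.68 and between -1.67 and -0.89, with SE from 0.18 to 0.38. Their choice by p fixes that they stand out, so these values are a description. The adjusted p by limma was 0.914 for each of these 20 genes.

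Above 0, Hnrnpf was the only one of the 10 genes whose arrays overlapped between the orientations. Hnrnpf, an RNA-binding protein that recognises runs of G and regulates splicing, lay at 0.95, 1.74, 0.98 and 0.97 on arrays 1 to 4. Its mean was 1.16 ± 0.39 (SD, n = 4), array 2 stood apart, and 3 of its 7 probe values were low-number ratios. On the probe with 4 values alone its mean was 0.70.

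The other 9 genes above 0 were farther from it with the mutant in Cy3, without overlap between the orientations. S100pbp, which encodes a protein that binds S100P, lay at 0.83 and 1.10 on arrays 1 and 2 and at 1.82 and 2.73 on arrays 3 and 4, with a mean of 1.62 ± 0.85. Cyb5r2, a cytochrome b5 reductase, lay at 0.35 and 0.67 and at 0.997 and 1.65, with a mean of 0.92 ± 0.55. Glt6d1, of a glycosyltransferase family, lay at 0.59 and 0.31 on arrays 1 and 2 and at 2.51 and 2.29 on arrays 3 and 4. Lrrc15, a membrane protein with leucine-rich repeats, lay at 0.16 and 0.058 and at 2.25 and 1.92. Ccna2 encodes cyclin A2, which drives DNA replication and entry into mitosis. It lay at 0.60 and 0.088 on arrays 1 and 2 and at 2.08 and 3.94 on arrays 3 and 4. Klhdc3, a substrate receptor of a ubiquitin ligase, had a mean of 0.90 ± 0.62. Phf21a, a subunit of a histone demethylase complex that binds unmethylated histone H3, had a mean of 0.82 ± 0.69. Kif9, a kinesin of cilia, had a mean of 1.21 ± 0.88 and Dqx1, related to RNA helicases, one of 1.56 ± 1.21. These 9 genes lay below 0 with the sign turned, and Hnrnpf lay at 0.19.

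Below 0, Grina and Trim45 were the genes whose arrays overlapped between the orientations. Grina, of the Lifeguard family of membrane proteins that inhibit apoptosis, lay at -1.42, -1.10, -1.68 and -1.03 on arrays 1 to 4, with a mean of -1.31 ± 0.30. Trim45, of a family of ubiquitin ligases, lay at -0.53, -1.65, -1.04 and -1.32, with a mean of -1.14 ± 0.47. With the sign turned Grina and Trim45 lay at 0.048 and 0.046.

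Another 6 genes were farther below 0 with the mutant in Cy5. Neb, the giant actin-binding protein nebulin of skeletal muscle, lay at -1.76 and -1.71 on arrays 1 and 2 and at -0.80 and -1.52 on arrays 3 and 4, with a mean of -1.45 ± 0.44. It ranged from -2.81 on 1 of its probes, fitted singly, to -0.84 with probes of 1 value or more in each orientation. Il15 encodes interleukin 15, a cytokine needed for natural killer cells, and lay at -1.27 and -1.43 and at -0.87 and -0.19. Of its 4 values 2 were low-number ratios. Zbtb21, a zinc finger transcription factor, had a mean of -1.01 ± 0.47. Slc9b2, a sodium-proton exchanger, lay at -1.63 and -2.08 on arrays 1 and 2 and at -0.16 and -0.15 on arrays 3 and 4. In the fit of single probes the higher of its 2 probes lay at -0.065, above the gene's mean of -1.005, so the other lay below that mean. Actrt1, an actin-related protein of the testis, had a mean of -1.67 ± 1.76 and Lrrc72 one of -1.04 ± 1.07, or -0.41 on its probe with 4 values.

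The reverse held for Sema3c and Fnbp1. Sema3c, a secreted semaphorin that guides neural crest cells into the outflow tract of the heart, lay at -0.47 and -0.59 on arrays 1 and 2 and at -1.62 and -1.90 on arrays 3 and 4. Its mean was -1.15 ± 0.72, with no overlap between the orientations, and with the sign turned it was 0.62. Fnbp1, which bends membranes during endocytosis, had a mean of -0.89 ± 0.57, and 4 of its 7 probe values were low-number ratios. Without these the mean was -0.18, and with probes of 1 value or more in each orientation it was -0.52.

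**Figure D2:**
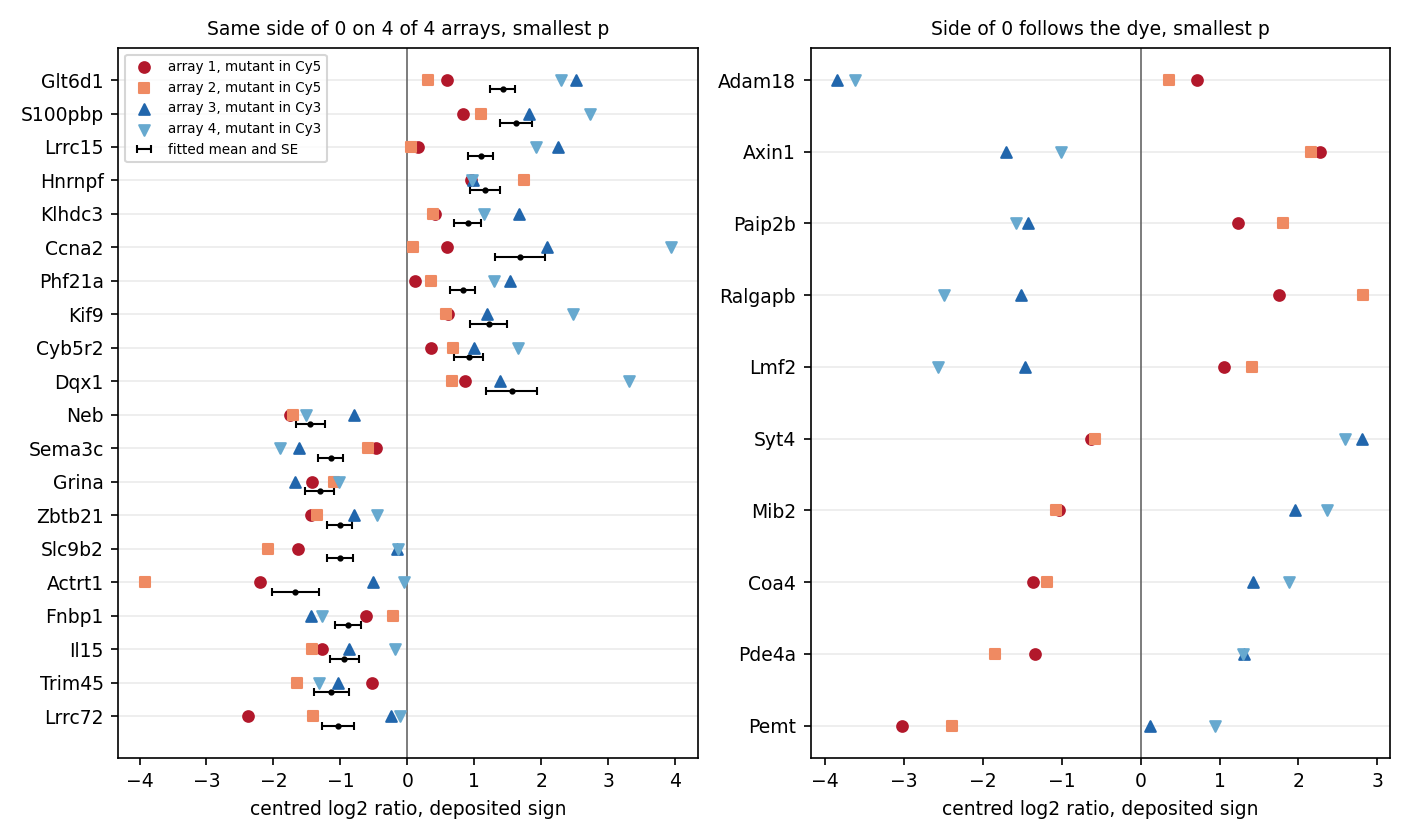
Centred log2 ratios on each array of E11.5 for the 20 genes on 1 side of 0 on every array with the smallest p (left, with the fitted mean and SE in black) and the 10 genes whose side of 0 followed the dye with the smallest p (right). On the left 9 of the 10 genes above 0 lie farther from 0 on arrays 3 and 4, with the mutant in Cy3, than on arrays 1 and 2.

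At the other ages, those of these 20 genes that were measured did not all keep to one side. Of the genes above 0, 5 were also measured at both later ages, and the mean was above 0 for 2 of them at E12.5 and 2 at E13.5. Of those below 0, 7 were measured, with 4 below 0 at E12.5 and 5 at E13.5. Glt6d1 lay at 0.48 ± 1.37 (SD, n = 10 arrays) at E12.5 and at -0.63 ± 0.29 (n = 4) at E13.5. Sema3c lay at 0.76 ± 1.06 (n = 10) and -0.14 ± 0.22 (n = 4), and Neb at 0.18 ± 1.21 (n = 12) and -0.10 ± 0.37 (n = 4). Tested directly in 1 fit of all 20 arrays, 0 of 7014 genes (0%) differed between E11.5 and E12.5 and 0 of 7014 (0%) between E11.5 and E13.5. The smallest adjusted p by limma was 0.999 in each contrast, with 239 and 202 genes under 0.05 before adjustment. Both contrasts share the arrays of E11.5. The fit took each array of every age as a unit, although those of E11.5 were technical repeats. Its spread therefore does not separate repeats from embryos.

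In the deposited sign, the side of 0 followed the dye more often than it stayed with the genotype. Of the 6910 genes with 4 values, 747 (10.8%) lay above 0 on both arrays with the mutant in Cy5 and below 0 on both with it in Cy3, and 722 (10.4%) did the reverse. That makes 1469 genes (21.3%), against 698 (10.1%) on one side of 0 on every array. Turning the sign on arrays 3 and 4 exchanges these groups, so the order of the shares rests on the deposited sign. Across probes, arrays of one orientation had a Spearman correlation of 0.128 (arrays 1 and 2) and 0.126 (arrays 3 and 4). The 4 pairs of opposite orientation lay between -0.162 and -0.123. Without low-number ratios these were 0.143 and 0.152, and -0.174 to -0.124. Probes share the array and its labelling, so these correlations are given as a description.

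No single gene passed the test of the dye orientation either. By limma 0 of 9052 genes (0%) were higher with the mutant in Cy5 and 0 of 9052 (0%) with it in Cy3, with a smallest adjusted p of 0.585. At an unadjusted p under 0.05 there were 733 genes (8.10%), 301 higher with Cy5 and 432 with Cy3. This test is also the test of the mean with the sign turned.

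The genes with the smallest p of this kind were far from 0 on both sides. Axin1, the scaffold of the complex that degrades beta-catenin, lay at 2.27 and 2.16 with the mutant in Cy5 and at -1.70 and -1.01 with it in Cy3. Of its 4 values, 3 were low-number ratios. Ralgapb, a subunit of the complex that inactivates Ral GTPases, lay at 1.76 and 2.82 and at -1.51 and -2.49. Paip2b, an inhibitor of poly(A)-binding protein in translation, differed by 3.02 ± 0.41 (SE, n = 4) between the orientations, and Lmf2, a lipase maturation factor, by 3.24 ± 0.53. Adam18, a membrane protein of sperm, lay at 0.72 and 0.36 and at -3.84 and -3.61.

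In the other direction, Syt4, a synaptotagmin of dense-core vesicles, lay at -0.63 and -0.58 with the mutant in Cy5 and at 2.81 and 2.59 with it in Cy3. Mib2, a ubiquitin ligase of Notch ligands, lay at -1.03 and -1.07 and at 1.95 and 2.36. Its distance between orientations was -3.21 ± 0.38 (SE, n = 4). Coa4, which helps assemble cytochrome oxidase, differed by -2.93 ± 0.39, and Pemt, which makes phosphatidylcholine, by -3.24 ± 0.50. Pde4a, a cyclic AMP phosphodiesterase, differed by -2.89 ± 0.39, and 3 of its 4 values were low-number ratios. The means of the 10 genes over both orientations ran from -1.60 for Adam18 to 1.05 for Syt4, and 0.0088 for Paip2b was the nearest to 0.

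**Figure D3:**
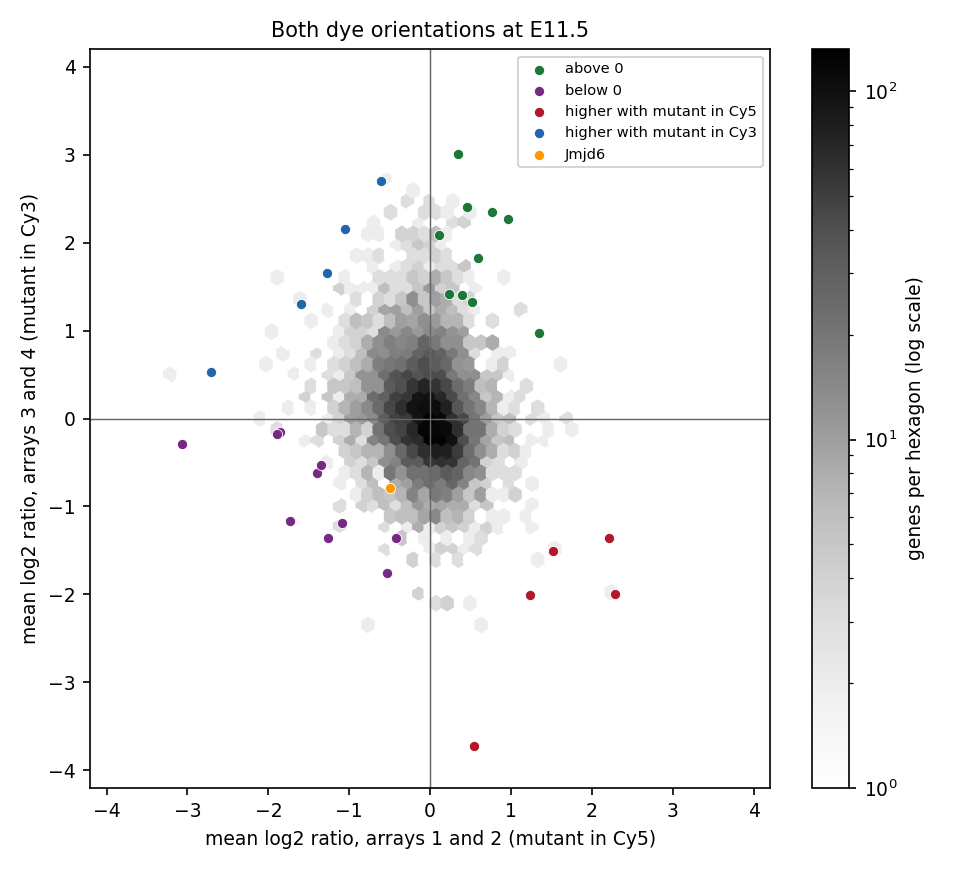
Each gene with 4 values is placed by its mean log2 ratio with the mutant in Cy5 (x axis, arrays 1 and 2) and in Cy3 (y axis, arrays 3 and 4); grey shades count genes per hexagon and 2 genes lie outside the axes. The upper left and lower right areas, where the side of 0 follows the dye, hold the 10 genes in blue and red, and the upper right and lower left areas hold the 20 in green and purple and Jmjd6 in orange.

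Probes of one gene gave little agreement. Pairs came from 1355 genes with at least 2 probes measured on all 4 arrays, and the first 2 probes of each gene were used. The Spearman correlation of the probes' means was 0.0579, and 52.3% of pairs lay on one side of 0. For the dye difference the correlation was 0.0013, with 49.7% on one side. The median distance between the probes of a pair was 0.32 for the mean and 0.83 for the dye difference. Both probes of a pair were read on the same arrays, so the pairs share the array and its dye.

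The gene groups, 24 lists with 703 genes tested, are described next by their counts and medians. None of them held a gene past the threshold, against 0% of all genes. In 21 of the 24 lists the median of the fitted means lay within 0.1 of 0, and over all genes it was 0.002. This rests on the deposited sign, since 14 of the 24 medians lay within 0.1 of 0 with the sign turned, where the median over all genes was -0.052. In bulk RNA such as this, fewer cells of a type and less RNA per cell cannot be told apart.

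The list of JmjC oxygenases and histone demethylases was centred near 0. Besides JmjC proteins it held related oxygenases, with 5 collagen prolyl and lysyl hydroxylases and 3 prolyl hydroxylases of HIF measured. Of 26 measured members 14 lay above 0 and 12 below, with a median of 0.036, and array medians ran from -0.068 to 0.024. Of 20 members with 4 values, 1 (Jmjd6) lay below 0 on every array, where 4.86% of all genes did so. Above 0 on every array lay 0 members, against 5.24% of all genes. Kdm5b, which removes methyl groups from histone H3, lay at -0.051, -0.18, 0.50 and 0.072 on arrays 1 to 4. Jarid2, a member without demethylase activity that works with Polycomb, had a mean of -0.13 with a 95% interval of -0.64 to 0.38. Jmjd8 lay at -0.14 with an interval of -0.66 to 0.39. Plod1, which hydroxylates lysines of collagen, was the lowest at -1.49, with arrays at -2.35, -0.63, -3.19 and 0.21 and 3 low-number ratios. The highest was Phf8, a demethylase of histones, at 1.12, 0.61 and 0.61 on the 3 arrays that measured it. Its fitted mean was 0.74. With 3 values, the fit gives the lone array of one orientation the same weight as the other pair together, so a fitted mean can differ from the plain mean.

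The genes of mRNA splicing lay near 0. Of 58 tested, 25 lay above and 33 below, with a median of -0.032 and array medians from -0.047 to 0.061. For 39 of them (67.2%) the 95% interval lay within 1 of 0, against 51.8% of all genes. Of 51 with 4 values, 2 lay above 0 and 1 below 0 on every array, against 5.24% and 4.86% of all genes. Snrpc, a protein of the U1 particle that recognises the start of introns, lay at 0.026, 0.16, 1.32 and 0.48, with a mean of 0.50 ± 0.58, or 0.28 without array 3. Cdc5l, a core component of the spliceosome, lay at -0.067, -0.72, -0.57 and -0.26, with a mean of -0.40 ± 0.29, or -0.24 without array 2. Srsf5, an SR protein, lay between 0.0050 and 0.098 on the 4 arrays. Among 10 SR proteins 4 lay above and 6 below, from -0.87 for Srsf9 to 1.05 for Tra2b. Hnrnpf, above, was not on the list, and 3 of its 5 measured hnRNP relatives lay above 0 with a median of 0.023. The highest of these, Hnrnpk, lay at -0.69 and -0.37 with the mutant in Cy5 and at 2.04 and 3.41 with it in Cy3.

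Genes of macrophages and of the engulfment of dying cells had a median below 0 that did not hold without array 3. Of 39 tested, 23 lay below and 16 above, with a median of -0.096 and array medians of -0.13, -0.054, -0.048 and -0.042. Without array 3 the median was 0.0080, without array 1 or 4 it was -0.040 and -0.041, and with values on 4 of 4 arrays it was -0.044. With the sign turned it was -0.023, beside -0.052 for all genes. Of 30 members with 4 values, 2 (against 4.86% of all genes) lay below 0 on every array and 0 (against 5.24%) above. Mfge8, the secreted bridge between phosphatidylserine and the integrins of phagocytes, lay at -0.74, -0.22, -1.66 and -0.47, with a mean of -0.77 ± 0.63, or -0.48 without array 3. Elmo1, which activates Rac downstream of engulfment receptors, lay at -0.53, -0.49, -0.12 and -0.089 as the average of 4 probes. The signalling GTPase Rac1 lay at 0.052 with an interval of -0.43 to 0.53. Of the receptors of dying cells, Axl lay at 0.047 and -0.062 with the mutant in Cy5 and at -1.28 on array 3, its only array with the mutant in Cy3. Tyro3 lay at 1.39 and 0.071 and at -1.09 on array 4. Stab1 lay at -0.21, 0.25, 0.21 and -2.44, so that array 4 alone set its mean of -0.55.

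Genes of apoptosis lay on both sides, 21 above and 15 below of 36 tested, with a median of 0.062. Bcl2, the founding inhibitor of the mitochondrial pathway, lay above 0 on every array, at 1.08, 0.37, 0.56 and 0.62, with a mean of 0.66 ± 0.30. With low-number ratios removed its mean was 0.34, and in the fit of single probes the lower of its probes lay at -0.34. Of 11 members of the Bcl2 family 10 lay above 0, with a median of 0.37 and a range from -0.80 for Bnip3 to 0.83 for Bak1, which lay at 3.2 on array 4 and between -0.23 and 0.38 on the others. Bad, Bid and Bcl2l11, which promote death, lay at 0.37, 0.44 and 0.25, and Mcl1 and Bcl2l1, which prevent it, at 0.18 and 0.13. The median of the family was -0.25 with the sign turned. Of 3 caspases, the proteases that carry out cell death, 1 lay above 0, with a median of -1.06. Casp9, the caspase of the mitochondrial pathway, lay at -0.96 on array 1, -4.61 on array 3 and -0.27 on array 4. All 3 inhibitors of apoptosis lay below 0, with a median of -0.22. With the sign turned the median was 0.74 for the caspases and 0.87 for the inhibitors. Only 1 of these caspases and 2 of the inhibitors had 4 values. The lowest member of the list was Birc3, an inhibitor of apoptosis, at -3.13 on 3 arrays (-2.10, -2.42 and -3.99).

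Targets of p53, 9 above and 14 below of 23 tested, had a median of -0.081, or -0.22 with the sign turned. Btg2, an antiproliferative target, lay at 0.18, 0.63, 0.54 and 1.14, with a mean of 0.62 ± 0.40. Mdm2, the ubiquitin ligase that limits p53 and is itself a target, lay at -0.046 with an interval of -0.53 to 0.44. Cdkn1a, the cell cycle inhibitor p21, lay at 0.26, -1.58, -0.40 and 0.14, so its arrays stood on both sides of 0. Sesn1 and Ccng1, also targets, lay at 0.035 and -0.089. For 34.8% of the list the interval lay within 1 of 0, below the 51.8% of all genes.

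Heart muscle genes had 17 of 30 members at or above 0 and 13 below, with a median of 0.026. Only 10 of the 30 lay above 0 with the sign turned, and the median was then -0.24. The 13 genes of the sarcomere divided into 7 at or above 0 and 6 below. Myl4, the myosin light chain of the atrium, varied little between arrays, at -0.15, -0.062, -0.20 and -0.16, with a mean of -0.14 ± 0.060. Its SE of 0.18 is larger than that spread because limma draws each gene's variance toward that of all genes. Actc1, the cardiac actin, lay at 0.026 with an interval of -0.47 to 0.52 and Mybpc3, a myosin-binding protein, at 0 with one of -0.51 to 0.51. Tnni3, the cardiac troponin I, lay at 0.28, 0.048, 2.96 and 0.64, and array 3 carried most of its mean of 0.98 ± 1.34, which was 0.40 without it and 1.56 without array 4. Nppa, the atrial natriuretic peptide, lay at 0.49, -0.054, 0.21 and 1.39. Myocd, a cofactor of serum response factor, lay at -3.69 on array 1 and above 0 on the other arrays. Desmin (Des) lay at -1.94, -1.06 and -1.58 on the 3 arrays that measured it.

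Eye genes had 13 of 18 members below 0 and a median of -0.17, but their array medians ran from -0.47 on array 3 to 0.17 on array 1. Without array 2 or 3 the median was -0.0070 and -0.017. Crygf, a gamma crystallin of the lens, lay at -0.25, -0.92, -0.19 and -1.64, with a mean of -0.75 ± 0.68, or -0.38 without array 4. Among 10 crystallins 7 lay below 0, with a median of -0.42 and a range from -1.16 for Crygb to 0.45 for Crybb2. Crygb owed its value to array 3, at -4.40 beside -0.27, 0.18 and -0.16. Pax6, the master regulator of eye development, lay at 0.18, -0.32, -0.12 and -0.014, with a mean of -0.071 and an interval of -0.61 to 0.46. The list had a median of 0.078 with the sign turned.

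Red blood cell genes had array medians above 0 in one dye orientation and below it in the other. These medians were 0.21 and 0.41 with the mutant in Cy5 and -0.17 and -0.13 with it in Cy3. The median of the means was 0.16, with 18 of 27 above 0, and with the sign turned it was 0.25. Leaving out an array gave medians from 0.068 (array 2) to 0.23 (array 1). Of 20 members with 4 values, 7 lay above 0 on both arrays with the mutant in Cy5 and below 0 on both with it in Cy3, where 10.8% of all genes did so, and 1 did the reverse. These 7 include 3 enzymes of haem synthesis. Alas2, the first enzyme of the pathway in red cells, lay at 1.2 and 0.90 and at -0.44 and -0.13. Alad lay at 0.47 and 0.60 and at -1.98 and -1.02, and Fech, which inserts the iron, at 0.81 and 0.56 and at -0.26 and -0.032. The other 4 were Rhd, Bpgm, Car2 and Zfpm1. The adult alpha globin Hba-a1, on 6 probes, lay at 0.64, 0.52, -0.14 and 0.034, and the embryonic globin Hba-x at 0.61, 0.81 and 0.33 on 3 arrays.

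A few genes of the red cell lineage kept one side. Sptb, the beta spectrin of the membrane skeleton, lay at 0.21, 0.52, 0.32 and 0.91, with a mean of 0.49 ± 0.31. Ank1, the ankyrin that anchors spectrin, lay below 0 on every array at -0.74, -0.37, -1.66 and -0.90. Tal1, a transcription factor without which no blood forms, lay at -0.14, -0.90, -1.15 and -1.74, with a mean of -0.98 ± 0.66. The fit of all 20 arrays kept only probes with enough values at every age, and there Tal1 lay at -0.30 at E11.5. On those probes it lay at -1.17 ± 0.52 (SD, n = 3 arrays) at E13.5 and at -0.25 ± 1.42 (n = 8) at E12.5. E11.5 minus E13.5 was 0.74 ± 0.86 (SE) and E11.5 minus E12.5 was -0.052 ± 0.69. By limma neither difference passed. Klf1, the erythroid activator of globin genes, lay at -0.068 with an interval of -0.67 to 0.53.

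**Figure D4:**
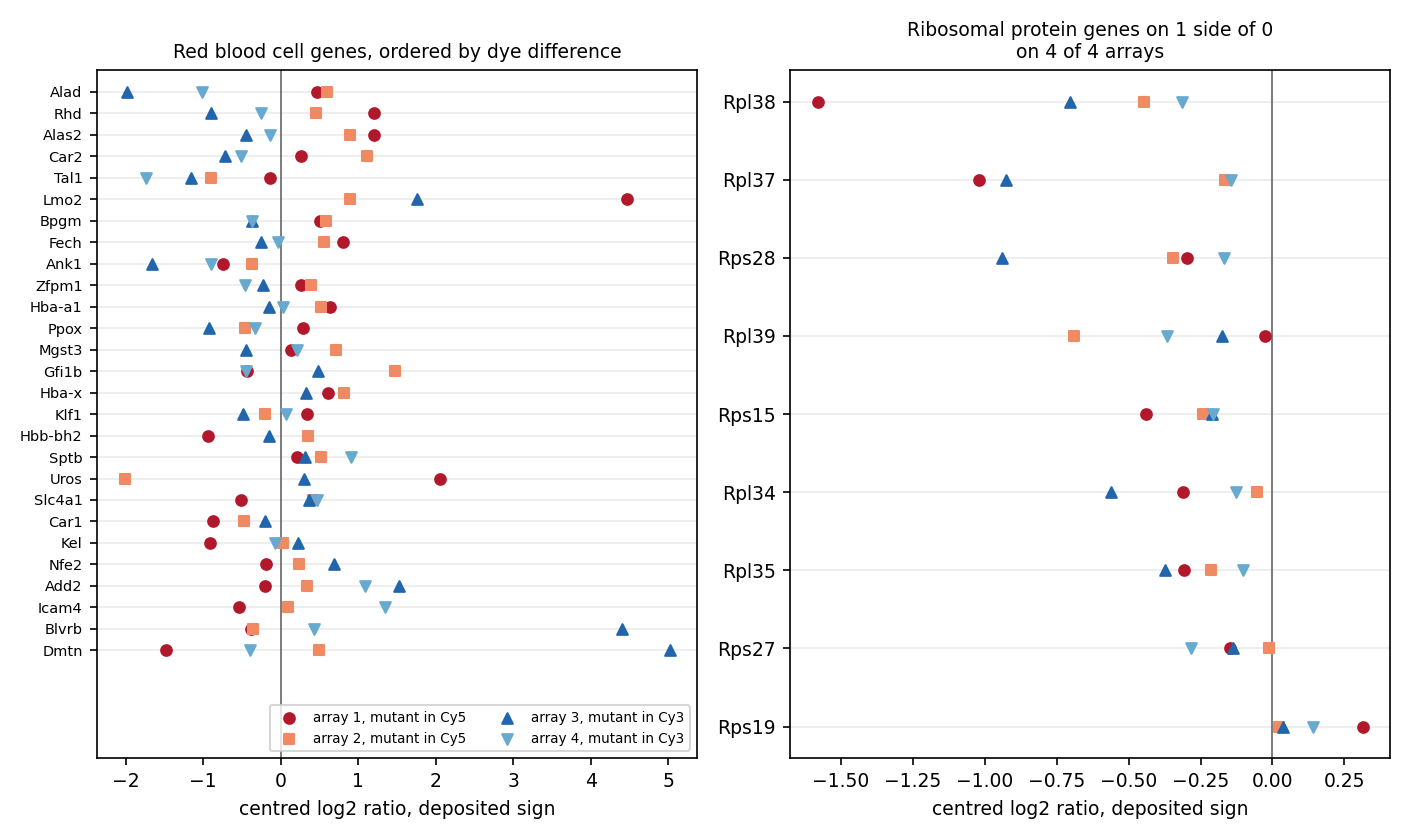
Left, the 27 red blood cell genes tested, ordered by the difference between dye orientations; right, the 9 ribosomal protein genes on 1 side of 0 on every array; symbols are the 4 arrays. On the left the red and orange symbols of Alad, Rhd, Alas2 and Car2 lie above 0 and their blue symbols below, while on the right 8 of 9 genes lie below 0.

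Genes for ribosomal proteins had 35 of 56 members below 0 and a median of -0.047, whose side depended on single arrays. Without array 1 or 3 it was 0.0062 and 0.039, and without array 2 or 4 it was -0.14 and -0.15. Their array medians were -0.13, 0.041, -0.32 and -0.062. Of 45 with 4 values, 8 lay below 0 on every array, where 4.86% of all genes did so, and 1 above. Another 8 followed the dye, above 0 with the mutant in Cy5 (10.8% of all genes), and 1 the reverse, so with the sign turned 8 lay above 0 on every array and 1 below. The 8 below 0 were 5 of the large subunit and 3 of the small subunit, and the 7 beside Rpl38 had means between -0.56 and -0.15. Rpl38, which is needed for the patterning of the axial skeleton, was the lowest at -1.58, -0.45, -0.70 and -0.32, with a mean of -0.76 ± 0.57, or -0.48 without array 1. Rpl35 lay at -0.31, -0.21, -0.37 and -0.10 on 3 probes and Rps15 at -0.44, -0.24, -0.21 and -0.21. Rps19, a gene mutated in Diamond-Blackfan anaemia, was the one above on every array, at 0.31, 0.024, 0.035 and 0.14. Its mean was 0.13 ± 0.13, or 0.056 without array 1 and 0.20 without array 2. Of its 4 values 2 were low-number ratios. The highest fitted mean of the list, 3.12 for Rpl10a, rested on array 3, at 5.68 beside 0.92 and 0.19. With the sign turned the median of the list was 0.056, and for 62.5% of its members the interval lay within 1 of 0. Genes of mitochondrial respiration, measured with similar precision, had 40 of 52 intervals within 1 of 0 and a median of -0.022.

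Secreted proteins of fetal liver and yolk sac had 28 of 44 members below 0 and a median of -0.079. The array medians were 0.068, -0.094, -0.44 and 0.030, so array 3 stood lowest, and without it the median was 0.027. Alb, serum albumin, lay at -0.44, -1.10, -0.67 and -0.11, with a mean of -0.58 ± 0.42. It lay below 0 on every array that measured it at the other ages too, with a mean of -1.47 ± 0.20 (SD, n = 4) at E13.5 and of -0.30 ± 0.39 (n = 11 arrays) at E12.5. For Alb, E11.5 minus E13.5 was 0.89 ± 0.38 (SE) and E11.5 minus E12.5 was -0.29 ± 0.31. Neither difference passed by limma (adjusted p = 0.999 for each). With the sign turned the value of Alb at E11.5 was -0.19. Afp, the fetal counterpart of albumin, lay at 0.068, -0.0060, -0.50 and -0.30. At E13.5 it lay below 0 on all arrays, at -1.47 ± 0.28 (SD, n = 4), and at E12.5 at 0.057 ± 0.62 (n = 11). Apoa1, the main protein of high-density lipoprotein, lay at 0.13, 0.64, 2.04 and 0.014, and array 3 carried most of its mean of 0.71 ± 0.93, which was 0.20 without it and 1.21 without array 4. Of 9 serine protease inhibitors 7 lay below 0, with a median of -0.54 and with the sign turned one of 0.19.

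Genes of the extracellular matrix and mesenchyme had array medians of 0.15, 0.12, 0.11 and 0.064. Of 39 tested 26 lay above 0, with a median of 0.051, and with the sign turned the median was 0.013. With values on 4 of 4 arrays it was -0.00252. In the deposited sign 1 list of 24, this one, had all array medians above 0 and 1, engulfment, all below 0. When the sign was turned, 2 had all above 0 (red blood cells and neural progenitors) and 3 all below 0 (heart muscle, Hox genes, and lung, gut and kidney). Lamc1, a laminin chain of basement membranes, lay at 0.36, 0.34, 0.25 and 0.39 on 3 probes, with a mean of 0.33 ± 0.057. Fbln5, which organises elastic fibres, lay at 0.41, 0.79, 0.73 and 0.14. Of 12 collagen chains 8 lay above 0, from -0.47 for Col6a2 to 0.26 for Col4a2, and the main fibrillar chains Col1a1 and Col1a2 lay at 0.030 and 0.14.

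Among the remaining lists, Hox cluster genes and placental genes had array medians that differed by orientation. The 9 Hox genes had medians of -0.036 and -0.28 with the mutant in Cy5 and 0.28 and 0.46 with it in Cy3, and their median moved from 0.086 to -0.47 with the sign turned. All 6 placental genes measured lay below 0, with a median of -0.45 and, with the sign turned, of 0.38. Their array medians ran from 0.068 on array 1 to -1.03 on array 4, and without array 4 the median was -0.15. Psg19, a pregnancy-specific glycoprotein, lay at -0.70, -1.93 and -4.29 on 3 arrays. In skeletal muscle, 13 of 24 genes lay above 0, and beside Neb the list held Chrna1, the alpha subunit of the acetylcholine receptor. Chrna1 lay at 0.76, 0.74, 0.61 and 0.56, with a mean of 0.67 ± 0.099, and its adjusted p by limma was 0.914. Of its 4 values 2 were low-number ratios, and at E13.5 it lay below 0 on all arrays, at -1.07 ± 0.93 (SD, n = 4). Other lists are given by their median in the deposited sign and then with the sign turned. Endothelium (28 genes) had 0.0024 and -0.17, epidermis (19 genes) 0.037 and -0.22, and neural progenitors (13 genes) 0.0070 and 0.13. Neurons (28 genes) had -0.061 and -0.10, cartilage and bone (17 genes) 0.084 and -0.057, and endoderm of lung and gut with kidney (17 genes) -0.040 and -0.15. The cell cycle and DNA replication (56 genes) had -0.067 and 0.012, hypoxia and glycolysis (27 genes) -0.034 and -0.035, and heat shock and the unfolded protein response (31 genes) -0.0033 and -0.070.

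**Figure D5:**
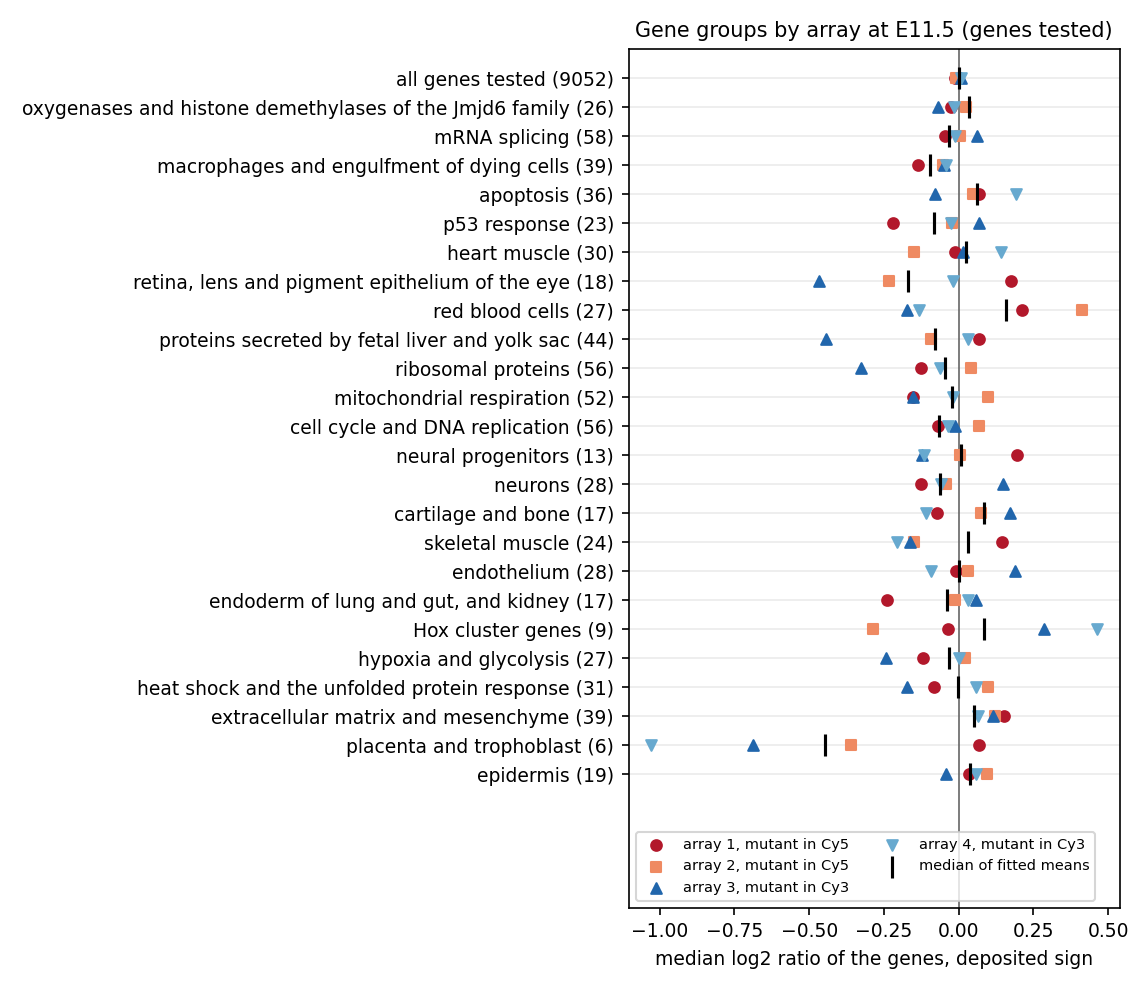
Median log2 ratio of each gene group on each of the 4 arrays of E11.5, with the median of the fitted means as a black bar and the number of genes tested in brackets. In the deposited sign all genes sit at 0, the matrix group is above 0 and the engulfment group below 0 on every array, and red blood cell and Hox genes divide by the dye of the mutant.

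For Per3 and Tmco5b a single array carried most of a large fitted mean. Per3, a clock gene, lay at 0.98, 0.22, 4.80 and 0.78, and without array 3 its mean was 0.66. Tmco5b lay at -0.96, -4.64, -1.43 and -0.52, and without array 2 its mean was -0.97. Prox1, a homeobox factor of the lens and lymphatic vessels, lay at 0.45 and 0.59 with the mutant in Cy5 and at 1.93 on array 3. Its mean was 0.52 without array 3. Foxi1, a forkhead factor of the ear, lay at -0.024, 2.74 and 3.18 on arrays 1 to 3, with a fitted mean of 2.27 that was 2.96 without array 1. Cep128, a centrosome gene, followed the dye, at -2.36 on array 1 and at 3.16 and 2.33 on arrays 3 and 4. Its dye difference of -5.10 had an adjusted p of 0.585 by limma.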

How the data were processed

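The authors deposited 1 log2 ratio per probe and array. The sources used here name no scanner, filter of spots or normalisation, and signal over background cannot be known. Per the labels, 20 µg of total RNA was labelled with Cy3 or Cy5. From these values, those over 12 from 0 were set as missing, each array was centred on its probe median, probes with 3 or more values were kept and averaged per gene. Of 20355 probes, 14030 had 1 gene symbol (13994 matched to current symbols by gene identifier, 36 kept as given), 5 several and 6320 none. The wild-type pool counts as 1 control sample, and its spread does not enter the tests.

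The 4 arrays were fitted with limma 3.58.1 in R 4.3.3 (mean and dye orientation, Benjamini-Hochberg adjusted p under 0.05), which was tested on simulated data. Age contrasts used all 20 arrays, with 8 of 12 values needed at E12.5. Named were Jmjd6, the 10 genes per direction of the mean and 5 per direction of the dye with the smallest p, and per list 1 gene on each side of 0. Genes beyond this rule were chosen after their values were seen. Members and lists were chosen with earlier results of these data known. A 20-array fit, other centring, scaling, filters and signs, and leaving out each array were alternatives.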

Additional observations from a re-analysis of the deposited data

Results flagged for a closer look

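Hnrnpf stood out because array 2, at 1.74, lay far from the other 3 arrays of E11.5, at 0.95 to 0.98. The first Jmjd6 probe stood out for its value on array 1, at -3.69, beside -0.37 to 0.18 on the others. Among array medians of gene groups, array 1 lay apart for the engulfment genes, at -0.13, and for skeletal muscle genes, at 0.15. Of 70 sets of 4 values looked at, 4 were picked out in this way, and chance picks about 1 in 20. Glt6d1 lay above 0 on every array of E11.5 and below 0 on every array of E13.5, where its mean was -0.63. The difference was picked by its signs alone, and in the contrast of ages by limma it did not pass (adjusted p = 0.999).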

How the results depend on the processing

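The 6 counts of genes past the threshold were 0 in the fits reported and in each of their 84 alternatives. Each fit without an array left a single array in that orientation. The spread of such a fit came from the other orientation alone, so its p-values are not compared here. With a replicate block, in case array numbers pair the ages, 0 genes differed between E11.5 and the other ages, and 0 passed at E11.5 in the fit of all 20 arrays, where Jmjd6 lay at -0.48. Same-number pairs had correlations of deviations from -0.033 to 0.118, with 1 of 12 above 0.1. The correlation within blocks that limma estimated was 0.190, so whether array numbers pair the ages is not settled. Turning the sign where Cy3 labelled the mutant put Jmjd6 at 0.15 and these means changed side, Apoa1 -0.32, Btg2 -0.22, Ccna2 -1.33, Cdc5l 0.013, Crygf 0.16, Cyb5r2 -0.40, Dqx1 -0.79, Fnbp1 0.47, Glt6d1 -0.98, Grina 0.048, Kif9 -0.61, Klhdc3 -0.50, Lrrc15 -0.99, Mfge8 0.29, Myl4 0.038, Phf21a -0.59, S100pbp -0.66, Sema3c 0.62, Snrpc -0.40, Sptb -0.12, Tal1 0.46, Tnni3 -0.82 and Trim45 0.046. So did the dye differences of Adam18 (-3.19), Coa4 (0.37), Lmf2 (-0.78), Mib2 (1.11) and Syt4 (2.10). Fitted by single probes the lower of the Bcl2 probes lay at -0.34. Of the alternatives for list medians, 42 moved by more than the spread between arrays and 363 did not. The number of arrays limits the precision, and signal over background is unknown.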

Other observations

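Probes without a single gene symbol, which the comparisons by gene leave out, numbered 5392 of the 17653 probes with 3 or more values at E11.5. Fitted as single probes, 0 of them passed for the mean and 0 for the dye orientation, with 5.92% at an unadjusted p under 0.05 and a smallest adjusted p of 0.866. Values over 12 from 0 were recorded on 1053 probes on at least 1 array of E11.5, of which 3 were recorded on both arrays with the mutant in Cy5, 9 on both with it in Cy3 and 22 on an array of each orientation.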
